A study of Mus musculus with 12 samples.

Results

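Major urinary proteins (MUPs) are small secreted lipocalins, a fold with a central pocket that binds volatile molecules. In the mouse they are made mainly by hepatocytes, enter the blood and are excreted in urine, where they carry and slowly release pheromones. The liver genes are male-biased in the adult mouse and depend on pulsatile growth hormone acting through the transcription factor STAT5b. The family was taken as every row of the 2 deposited gene tables whose symbol is Mup followed by a number, or begins with Mup-ps, the symbol of Mup pseudogenes. That rule found 49 of the 55536 genes listed, made up of 22 numbered protein-coding genes and 27 pseudogenes.

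Liver RNA from wild-type C57BL/6J mice 8 weeks old was sequenced in 3 groups of 4 samples. Every animal, controls included, received an adenovirus by tail vein at a dose of 0.1 OD. In the shG0s2 group the virus carried a short hairpin RNA against G0s2, which encodes an inhibitor of adipose triglyceride lipase. In the shRgs16 group the hairpin targeted Rgs16, which encodes a regulator that shortens G protein signalling. In the shLacZ control group it targeted the bacterial lacZ gene. Livers were collected 12 days after infection at zeitgeber time 12, after 6 h without food, from mice kept on a cycle of 12 h light and 12 h dark. The labels give no sex and do not say that replicates were separate animals, and each p-value below therefore reflects only how these samples vary, which may in part be technical.

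Of the 49 members, 48 lay on chromosome 4 between 59956804 and 62150863 (GRCm38), a stretch of 2.194 Mb that held no other protein-coding gene start. The exception was Mup-ps22 on chromosome 11. The 16 numbered genes called central here (Mup1, Mup2, Mup7 to Mup19 and Mup22) were near-identical, with a coding sequence identity of 98.2 to 99.8% over 120 pairs. The other 6, called peripheral (Mup3, Mup4, Mup5, Mup6, Mup20 and Mup21), had diverged, with 82.8 to 94.8% identity over their 15 pairs. Mup20 encodes darcin, a male pheromone that is attractive to female mice, and Mup4, Mup5 and Mup6 are known mainly from secretory glands of the head.

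This near-identity limits what can be said of a single copy. Of the 50-base windows in the annotated transcripts, a median of 13.95% per central copy matched no other transcript (range 0.0 to 38.4% over 16 copies). In Mup15, Mup19 and Mup22 no window was unique, so their values rest on how the authors' counting divided shared reads. The peripheral copies were better separated, with 49.5% unique windows in Mup20, 80.7% in Mup21, 86.7% in Mup3 and 96.0% in Mup6. Most of what Mup20 shared was shared with the pseudogene Mup-ps19, which in turn shared 89.8% of its windows with Mup20. Sums over the family, and the peripheral copies, are therefore given more weight below than any central copy.

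The sequence likeness extended into the promoters. RefSeq (GRCm38.p6) promoter entries were matched for 14 of the 22 numbered genes, and Mup20 was not among them. The 250 bases upstream of the RefSeq start are shown for 4 of the 14. They were taken to cover both classes and unlike sizes of fall, but they do not cover the response of Mup20 described below. Mup3 (chr4:62087318-62087567) and Mup21 (chr4:62150842-62151091) are neighbouring peripheral genes, and Mup10 (chr4:60582156-60582405) and Mup19 (chr4:61782225-61782474) are central genes. All 4 are on the minus strand and are written 5′ to 3′, with capitals marking TATAA on either strand and the longest run of bases common to all 4.
Mup3: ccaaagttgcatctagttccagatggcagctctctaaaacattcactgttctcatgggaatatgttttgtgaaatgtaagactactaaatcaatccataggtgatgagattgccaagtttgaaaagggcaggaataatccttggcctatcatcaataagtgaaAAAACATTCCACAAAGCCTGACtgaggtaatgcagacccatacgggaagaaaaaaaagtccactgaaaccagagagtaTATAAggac
Mup21: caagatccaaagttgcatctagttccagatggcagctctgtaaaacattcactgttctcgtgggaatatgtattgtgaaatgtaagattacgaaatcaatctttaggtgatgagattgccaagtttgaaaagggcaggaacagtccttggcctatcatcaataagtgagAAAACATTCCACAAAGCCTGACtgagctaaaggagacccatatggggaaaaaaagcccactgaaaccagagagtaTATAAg
Mup10: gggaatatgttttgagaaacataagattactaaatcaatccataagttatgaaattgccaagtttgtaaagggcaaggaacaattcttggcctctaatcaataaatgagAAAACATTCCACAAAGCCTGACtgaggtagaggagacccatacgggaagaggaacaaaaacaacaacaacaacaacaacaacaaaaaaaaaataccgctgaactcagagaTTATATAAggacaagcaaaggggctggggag
Mup19: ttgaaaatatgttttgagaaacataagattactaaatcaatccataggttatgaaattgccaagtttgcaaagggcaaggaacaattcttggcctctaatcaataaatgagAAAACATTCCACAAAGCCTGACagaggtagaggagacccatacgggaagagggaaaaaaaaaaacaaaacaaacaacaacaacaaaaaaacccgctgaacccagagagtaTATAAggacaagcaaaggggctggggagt

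The common run, AAAACATTCCACAAAGCCTGAC, was 22 bases long and was found in 10 of 27025 RefSeq gene promoters of this length (0.037%), all 10 of them Mup genes. Because the run was chosen as common to the 4 Mup promoters shown, their matches were fixed in advance. The share is a description only. The run began at position -87 in Mup3, -81 in Mup21, -141 in Mup10 and -139 in Mup19, counted back from the RefSeq start. TATAA stood in 11 of the 14 Mup promoters (78.6%), against 23.5% of all promoters. TTCNNNGAA, the palindrome that STAT5 proteins are known to bind, was in 0 of the 14 windows on either strand, against 7.2% of all promoters. Identity over the window was 89.1% between Mup3 and Mup21 and 91.7% between Mup10 and Mup19, but 57.4% between Mup3 and Mup19. The last value is lowered by the offset of the windows, since the run began at -87 in Mup3 and -139 in Mup19. Mup3 and the central gene Mup14, where the run began at -89, had 78.5%. So 57.4% does not measure how alike the promoters of the 2 classes are. A match or its absence describes these letters in this window only.

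Total estimated counts per sample were 18458266 to 26031061 in shG0s2, 24855361 to 27170443 in shRgs16 and 25636504 to 26472233 in shLacZ. The unit for levels is CPM, a count scaled to a common library total that was adjusted over all 12 samples by the trimmed mean of M-values (TMM), or TPM, which is also corrected for transcript length. G0s2 was at 24.3 to 49.4 CPM in shG0s2, 57.8 to 88.7 CPM in shRgs16 and 66.8 to 88.1 CPM in shLacZ. Its log2 fold change in shG0s2 against shLacZ was -0.98 (edgeR adjusted p = 0.00301), and -0.48 with library size alone (adjusted p = 0.0553). Rgs16 was at 43.4 to 71.3 CPM in shG0s2, 14.5 to 37.3 CPM in shRgs16 and 106 to 212 CPM in shLacZ, so it was also lower in shG0s2 than in shLacZ (log2 fold change -1.32, edgeR adjusted p = 0.00236). Transcripts of the Y-linked gene Ddx3y were present in every sample (64.6 to 96.4 CPM), and Xist stayed at or below 0.476 CPM. Scaling by library size alone would move the median log2 fold change of all genes up by 0.488 for shG0s2 against shLacZ, by 0.301 for shRgs16 against shLacZ and by 0.200 for shG0s2 against shRgs16. Leaving the Mup genes out of the scaling moved it by -0.002, 0.005 and 0.000. Shares of all genes called that are given below are from fits with TMM. They are not a background for counts with library size alone.

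Mup RNA made up a small part of the library in both knockdowns and a large part in the controls. The 49 members took 0.824, 1.15, 1.57 and 1.07% of all counts in shG0s2 replicates 1 to 4. They took 2.49, 1.16, 3.32 and 2.15% in the shRgs16 samples and 10.7, 11.1, 9.61 and 10.8% in the shLacZ samples. No knockdown sample came near a control sample, and shRgs16 replicate 2 lay within the range of the shG0s2 samples. The family sum was 10.9% of its shLacZ mean in shG0s2 and 21.6% in shRgs16, on the scale of percent of counts. On the TMM scale it was 7.66% and 17.6%.

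The family held a still larger part of the transcripts once length was corrected for. It summed to 2.38% ± 0.666 of TPM in shG0s2, 4.65% ± 1.79 in shRgs16 and 19.6% ± 1.22 in shLacZ (SD, n = 4 each). Of the 10 genes with the highest mean TPM in a group, 1 was a Mup gene in shG0s2, 0 in shRgs16 and 5 in shLacZ. Among the top 50 genes the numbers were 2, 8 and 11 for the groups in that order. Mup20 ranked 6 in shG0s2, 16 in shRgs16 and 2 in shLacZ by mean TPM. Mup7 ranked 844, 31 and 5 in the same groups.

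Mup20 stood apart from the central copies in the shG0s2 samples. The 16 central copies took 0.114, 0.150, 0.600 and 0.141% of counts in shG0s2, 1.89, 0.671, 2.56 and 1.62% in shRgs16, and 8.23, 8.47, 7.17 and 8.33% in shLacZ. Within shG0s2, replicate 3 stood apart at more than any of its fellows, and within shRgs16, replicate 2 was the lowest. Mup20 alone took 0.678, 0.968, 0.896 and 0.880% of counts in shG0s2, 0.392, 0.330, 0.435 and 0.328% in shRgs16, and 1.87, 1.93, 1.82 and 1.85% in shLacZ. Its 3 groups did not overlap, with shG0s2 between the other two. Without replicate 3 the central copies averaged 0.135% ± 0.0191 of counts in shG0s2 (SD, n = 3), against 0.251% with it. As a share of counts, central copies kept 3.12% of their shLacZ mean in shG0s2 and 20.9% in shRgs16, whereas Mup20 kept 45.8% in shG0s2 and 19.9% in shRgs16. On the TMM scale, central copies kept 2.21% and 17.1%, and Mup20 kept 32.0% and 16.1%. The size of each fall therefore depends on the scale. These sums are descriptions with no test, and in bulk liver fewer cells making Mup RNA and less Mup RNA per cell cannot be told apart.

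**Figure D1:**
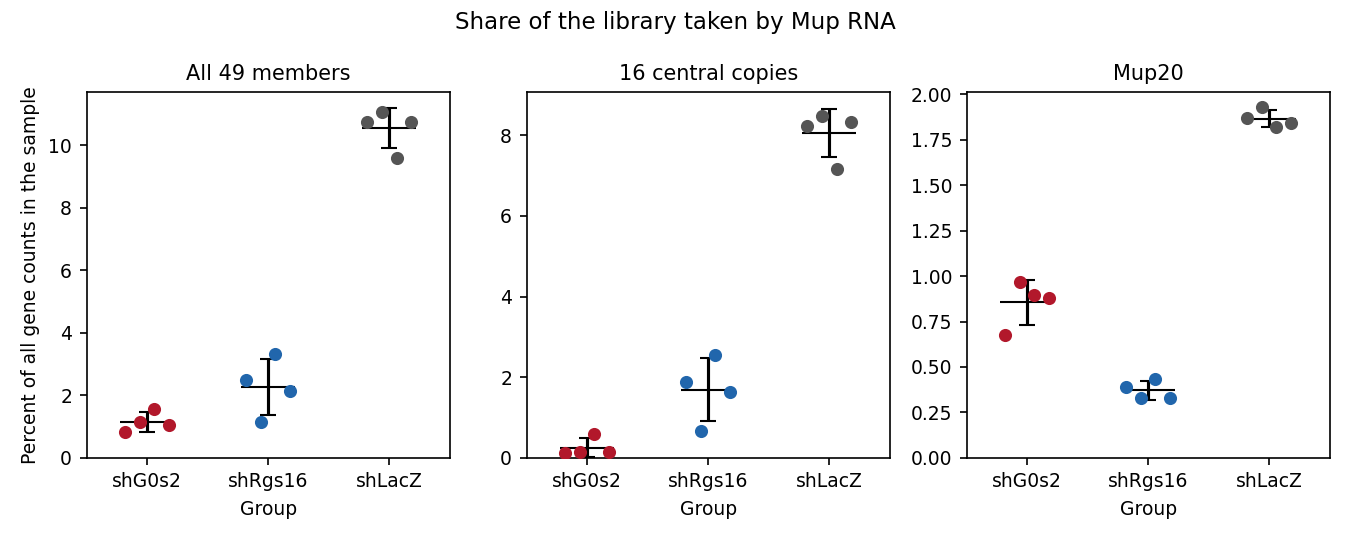
Percent of all gene counts in each sample (y axes from 0, each panel on its own scale) taken by all 49 Mup members, the 16 central copies and Mup20, by group. Points are samples, and bars are the mean ± SD of 4. The central copies were lowest in shG0s2, with replicate 3 at 0.600%, while Mup20 was lowest in shRgs16.

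The make-up of Mup RNA in shG0s2 differed from that in the other groups. Mup20 supplied 80.9, 82.5, 54.3 and 81.0% of the family's TPM in the shG0s2 samples. It supplied 14.5, 26.6, 12.1 and 14.1% in the shRgs16 samples and 16.2, 16.2, 17.7 and 15.9% in the shLacZ samples. Every shG0s2 sample was above every sample of the other groups. In shRgs16, replicate 2 was above the shLacZ samples and the other 3 were below them. Without shG0s2 replicate 3 the mean in shG0s2 was 81.4% ± 0.885 (SD, n = 3). The 16 central copies together supplied 21.4% ± 13.1 of the family's TPM in shG0s2, 73.5% ± 8.60 in shRgs16 and 77.7% ± 1.18 in shLacZ (SD, n = 4 each).

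Shares within the central class also moved. Mup7, Mup19 and Mup14 supplied 11.6% ± 1.09, 12.0% ± 0.359 and 11.2% ± 0.476 of the family's TPM in shLacZ. In shG0s2 they supplied 0.649% ± 0.468, 0.849% ± 0.634 and 3.01% ± 2.60. Mup22 was the central copy with the largest share in every group, at 8.87% ± 5.70 in shG0s2, 22.1% ± 2.76 in shRgs16 and 13.1% ± 0.653 in shLacZ. The TPM of Mup22 over that of Mup7 was 4.05, 22.3, 21.4 and 25.9 in the shG0s2 samples, 2.59, 5.90, 1.71 and 2.89 in the shRgs16 samples, and 0.9996, 1.13, 1.36 and 1.06 in the shLacZ samples. The ratio was above every shLacZ value in every knockdown sample. Since Mup22 had no unique window and shared 92.9% of its windows with Mup10, this ratio also depends on how shared reads were divided.

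**Figure D2:**
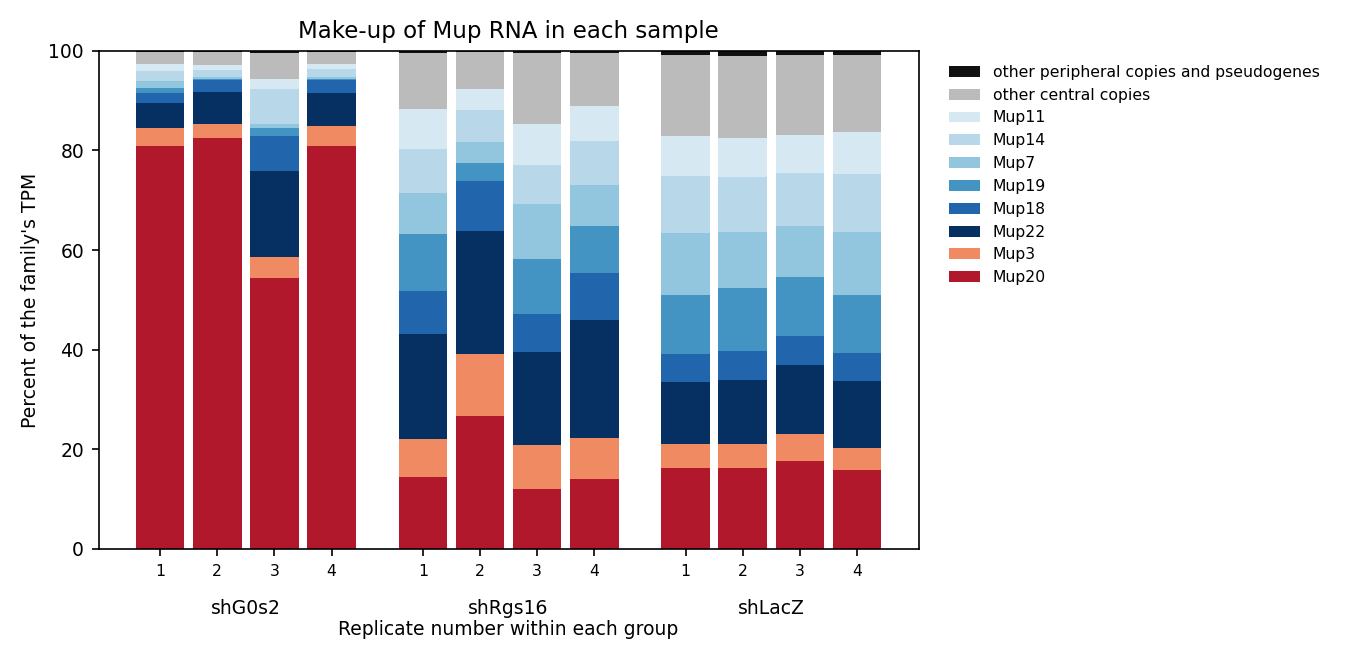
Percent of the family's summed TPM (y axis) supplied by 8 named copies and by the remaining members in each of the 12 samples, with replicate numbers on the x axis under their group. Mup20 (red, at the base) takes 54.3 to 82.5% in shG0s2, 12.1 to 26.6% in shRgs16 and 15.9 to 17.7% in shLacZ.

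Each member was next compared between groups in fits over all genes (edgeR quasi-likelihood test, Benjamini-Hochberg adjustment, false discovery rate 0.05). In shG0s2 against shLacZ, 32 of the 49 members passed the filter on low counts, and all 32 were lower, against a background of 29.2% of 15592 genes called lower. Of those 32, 24 would have passed on the shG0s2 samples alone. The remaining 8 (Mup5, Mup6 and 6 pseudogenes) entered only through their shLacZ values and so had to be lower. In shRgs16 against shLacZ, 31 members were tested and 31 were lower, against 24.5% of 15324 genes, and 27 of them passed on the shRgs16 samples alone. The other 4 (Mup5, Mup-ps7, Mup-ps8 and Mup-ps14) entered only through their shLacZ values and so had to be lower. No knockdown sample overlapped the shLacZ samples for the 24 and 27 members that passed on the knockdown samples alone. Of all genes, 28.3% and 23.1% were lower without overlap. The other 8 and 4 members did not overlap either, but the filter largely fixed this, so it is no support.

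All 16 central copies passed on the knockdown samples alone in both comparisons. Their median log2 fold change was -5.92 in shG0s2 and -2.89 in shRgs16, where the median over all genes tested was 0.01 in both. Their range was -8.11 (Mup7) to -3.23 (Mup10) in shG0s2 and -3.71 (Mup9) to -1.61 (Mup10) in shRgs16. Mean CPM in shG0s2 was 0.355% (Mup17) to 10.5% (Mup10) of the shLacZ mean, and in shRgs16 7.63% (Mup9) to 32.7% (Mup10). The 5 tested peripheral genes ranged from -6.38 (Mup21) to -1.62 (Mup20) in shG0s2 and from -4.98 (Mup21) to -1.66 (Mup3) in shRgs16. The 2 comparisons share the shLacZ samples, so their likeness is not independent evidence.

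In the authors' deposited table, 39 members were marked as significantly lower in shG0s2 and 38 in shRgs16, 0 were marked higher in either, and 8 had no test in each. The share of all genes so marked was not counted here, so these numbers have no background beside them. Those marked in shG0s2 include Mup-ps6, Mup-ps17, Mup-ps18 and Mup-ps23. These had 0 counts in every shG0s2 sample and so could only come out lower.

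Mup20, the darcin gene, was the numbered copy that fell least in shG0s2. It had 5916, 7732, 7829 and 7409 CPM in the shG0s2 samples, 3820, 3137, 4357 and 3240 CPM in the shRgs16 samples, and 22921, 23547, 20669 and 23115 CPM in the shLacZ samples. The 3 groups did not overlap. The log2 fold change was -1.62 ± 0.126 in shG0s2 (SE, edgeR adjusted p = 5.94e-07) and -2.63 ± 0.118 in shRgs16 (adjusted p = 8.42e-08), both against shLacZ. Tested directly, Mup20 was higher in shG0s2 than in shRgs16 by 0.999 ± 0.123 on the log2 scale (adjusted p = 1.30e-05). Mup-ps19, the pseudogene that shares most of its sequence with Mup20, showed the same order at a far lower level. It had 6.94, 6.19, 6.74 and 7.33 CPM in shG0s2, 4.09, 3.92, 3.83 and 3.30 CPM in shRgs16, and 18.9, 19.5, 15.2 and 21.5 CPM in shLacZ. Its reads could in part be those of Mup20.

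Mup3 lies next to Mup20 and behaved in the opposite order between the knockdowns. It had 262, 262, 605 and 351 CPM in the shG0s2 samples, 1996, 1458, 3140 and 1874 CPM in the shRgs16 samples, and 6874, 7147, 6200 and 6482 CPM in the shLacZ samples. Every shG0s2 sample was below every shRgs16 sample, and every shRgs16 sample was below every shLacZ sample. The log2 fold change was -4.15 ± 0.293 in shG0s2 (edgeR adjusted p = 2.98e-06) and -1.66 ± 0.207 in shRgs16 (adjusted p = 0.000189), and the direct difference of shG0s2 against shRgs16 was -2.50 ± 0.307 (adjusted p = 7.98e-05).

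Mup21, the closest relative of Mup3 by coding sequence (94.8% identity), fell most among the peripheral genes in both knockdowns. It had 3.35, 3.46, 5.92 and 3.61 CPM in shG0s2, 10.2, 7.41, 18.9 and 7.59 CPM in shRgs16, and 404, 435, 299 and 256 CPM in shLacZ. The groups did not overlap, and replicate 3 was the highest in each knockdown. The log2 fold change was -6.38 ± 0.284 in shG0s2 (edgeR adjusted p = 7.34e-07) and -4.98 ± 0.388 in shRgs16 (adjusted p = 7.45e-05). The TPM of Mup3 over that of Mup21 averaged 54.4 ± 8.25 in shG0s2, 124 ± 20.5 in shRgs16 and 12.3 ± 2.53 in shLacZ (SD, n = 4 each), so these neighbours, which have 89.1% identity over the promoter window, did not keep their proportion.

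The copies known mainly from glands were scarce in liver. Mup6 had 0.134, 0.303, 1.47 and 0.506 CPM in shG0s2, 1.26, 0.581, 1.37 and 0.915 CPM in shRgs16, and 4.93, 4.90, 6.38 and 5.54 CPM in shLacZ. Both knockdowns were below shLacZ in every sample (log2 fold change -3.11 ± 0.488 in shG0s2, edgeR adjusted p = 0.000465, and -2.40 ± 0.230 in shRgs16, adjusted p = 8.63e-06), and the 2 knockdowns overlapped. In shG0s2, Mup6 entered the fit only through its shLacZ values and so had to be lower, and that p-value is no support. Mup5 was at 0 in 3 shG0s2 samples and at 0.0684 CPM in replicate 3. It had 0.0717, 0.0363, 0.117 and 0.0398 CPM in shRgs16 and 1.59, 0.942, 0.842 and 1.18 CPM in shLacZ. Both knockdowns were therefore at or near the limit of detection, where 3 counts over a group are worth 0.0321 CPM in shG0s2 and 0.0289 CPM in shRgs16. Mup4 was not tested. It summed to 2 estimated counts over the shG0s2 samples, 6.73 over shRgs16 and 51.1 over shLacZ.

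**Figure D3:**
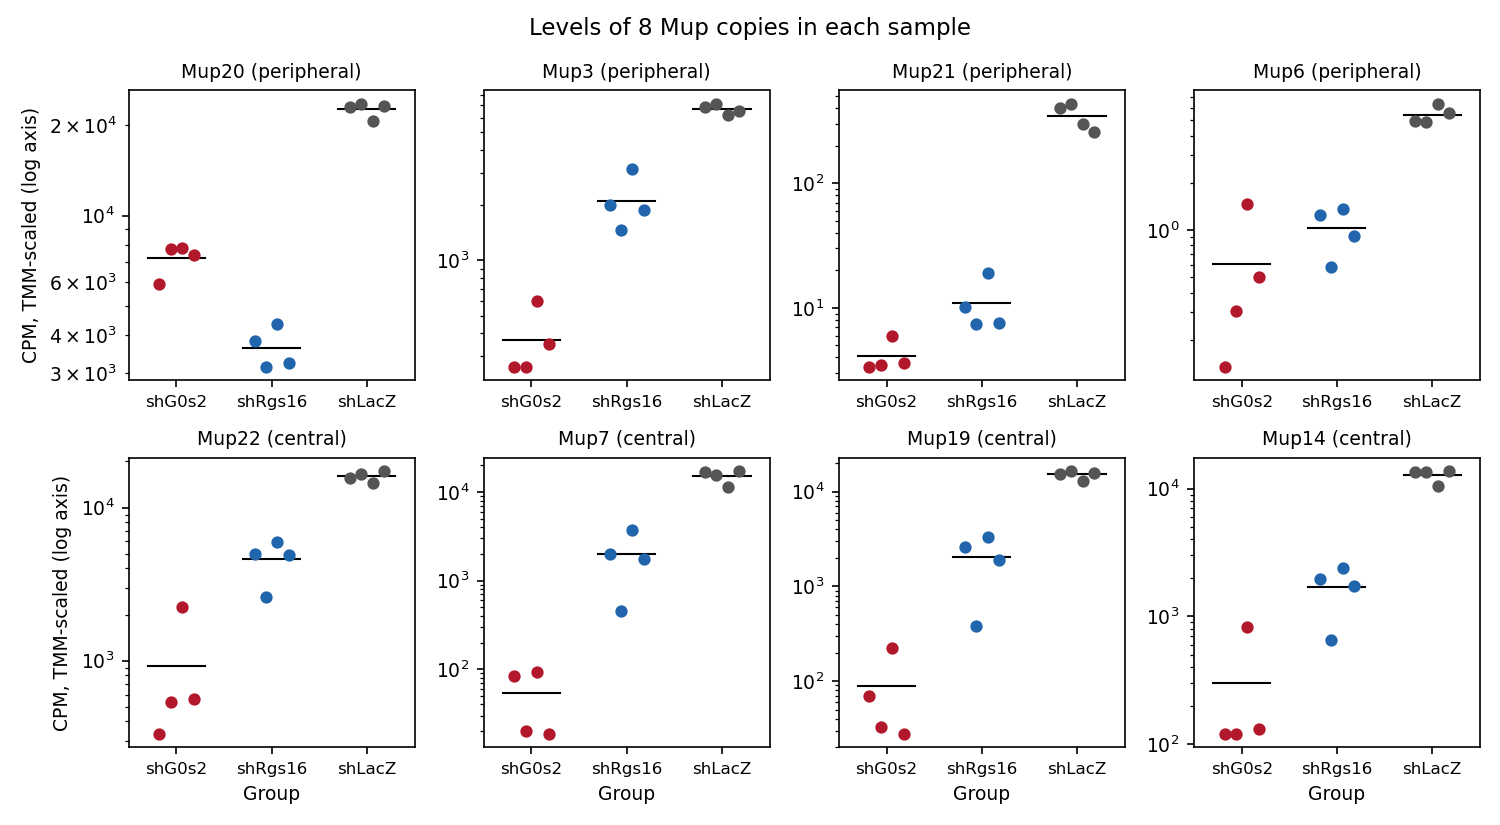
CPM scaled by TMM (log axes, each panel on its own range) of 4 peripheral and 4 central Mup copies in each sample, by group. Points are samples and lines are group means. In all 8 panels the shLacZ samples are above every knockdown sample. Mup20 is the panel where shRgs16 lies below shG0s2.

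Mup22 and Mup14 are central copies whose shG0s2 mean rests largely on 1 sample. Mup22 had 331, 540, 2240 and 557 CPM in shG0s2, 4980, 2601, 5991 and 4870 CPM in shRgs16, and 15641, 16594, 14513 and 17392 CPM in shLacZ. Mup14 had 120, 120, 825 and 130 CPM in shG0s2, 1963, 650, 2398 and 1743 CPM in shRgs16, and 13543, 13502, 10449 and 13811 CPM in shLacZ. In both, shG0s2 replicate 3 was the highest of its group, and for Mup14 it exceeded shRgs16 replicate 2. Mup22 had a log2 fold change of -4.10 ± 0.687 in shG0s2 (edgeR adjusted p = 0.0018) and -1.80 ± 0.222 in shRgs16 (adjusted p = 0.000176). Mup14 had a log2 fold change of -5.39 ± 0.877 in shG0s2 (adjusted p = 0.0016) and -2.93 ± 0.390 in shRgs16 (adjusted p = 0.000723). Without shG0s2 replicate 3 the log2 fold change in shG0s2 was -5.06 for Mup22 and -6.68 for Mup14.

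Mup7, Mup19 and Mup11, also central, were among the most abundant transcripts in the controls. Mup7 had 84.8, 19.9, 93.5 and 18.5 CPM in shG0s2, 2010, 459, 3715 and 1780 CPM in shRgs16, and 16674, 15541, 11352 and 17426 CPM in shLacZ. Mup19 had 70.2, 32.5, 224 and 27.5 CPM in shG0s2, 2593, 378, 3347 and 1887 CPM in shRgs16, and 15394, 16600, 13059 and 15724 CPM in shLacZ. The 3 groups did not overlap for either gene, and shRgs16 replicate 2 was the lowest of its group. Mup7 had a log2 fold change of -8.11 ± 0.795 in shG0s2 (edgeR adjusted p = 0.000107), the largest estimate among the numbered copies in that comparison and close to those of Mup17 and Mup15, and -2.94 ± 0.604 in shRgs16 (adjusted p = 0.007). Mup19 had a log2 fold change of -7.39 ± 0.901 in shG0s2 (adjusted p = 0.000371) and -2.89 ± 0.624 in shRgs16 (adjusted p = 0.0085).

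Mup11 followed the same order. It had 91.2, 71.8, 265 and 67.1 CPM in shG0s2, 2055, 470, 2885 and 1549 CPM in shRgs16, and 11312, 11368, 8679 and 12198 CPM in shLacZ. It had a log2 fold change of -6.43 ± 0.593 in shG0s2 (edgeR adjusted p = 5.96e-05) and -2.65 ± 0.527 in shRgs16 (adjusted p = 0.0059). Without shG0s2 replicate 3 the log2 fold change in shG0s2 was -7.13 for Mup11 and -8.43 for Mup19.

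Mup15 varied widely within both knockdown groups. It had 22.1, 4.76, 49.3 and 3.03 CPM in shG0s2, 721, 72.7, 1678 and 510 CPM in shRgs16, and 6391, 6568, 5065 and 4166 CPM in shLacZ. In shRgs16 the lowest sample was replicate 2 and the highest replicate 3, and no groups overlapped. Mup15 had a log2 fold change of -8.09 ± 1.10 in shG0s2 (edgeR adjusted p = 0.000635) and -2.90 ± 0.856 in shRgs16 (adjusted p = 0.0299). The shRgs16 call did not hold without shRgs16 replicate 1 or 4 or without any 1 of the 4 shLacZ samples, where adjusted p was 0.0531 to 0.0746. Without shG0s2 replicate 3 its log2 fold change in shG0s2 was -9.09, and without shRgs16 replicate 3 that in shRgs16 was -3.67. The shRgs16 call of Mup17 (log2 fold change -3.66 ± 0.977, adjusted p = 0.0204) was also lost without shRgs16 replicate 1 or 4.

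Samples ranked alike across the central copies. In shG0s2, replicate 3 had the highest CPM of its group for 16 of 16 central copies and for 5 of 5 tested peripheral genes. In shRgs16, replicate 2 had the lowest CPM for 16 of 16 central copies and 5 of 5 peripheral genes, and replicate 3 had the highest for 15 of 16 and 5 of 5. By TPM the central counts were the same, but shG0s2 replicate 3 was the highest for 4 of 5 peripheral genes and shRgs16 replicate 2 the lowest for 3 of 5. Mup20 was an exception in both groups by TPM, but not by CPM. Copies that share reads are not independent, so this counts as a description of the samples. The hairpin targets in those samples were at 24.3 CPM for G0s2 in shG0s2 replicate 3, the lowest of its group, and at 19.7 CPM for Rgs16 in shRgs16 replicate 2, where the group spanned 14.5 to 37.3 CPM. Whether target level bears on Mup level was not tested.

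The pseudogenes added little to the sums. Together the 27 took 0.00203% ± 0.000951 of counts in shG0s2, 0.00679% ± 0.00350 in shRgs16 and 0.0449% ± 0.00190 in shLacZ (SD, n = 4 each). A total of 7 members, all pseudogenes, had 0 counts in all 12 samples. Of the 27, 11 were tested in shG0s2 against shLacZ, with log2 fold changes of -7.37 (Mup-ps5) to -1.44 (Mup-ps19), and 10 were tested in shRgs16, with -3.45 (Mup-ps14) to -1.35 (Mup-ps13). In shG0s2, 6 of the 11, Mup-ps5 among them, entered only through their shLacZ values, and in shRgs16, 3 of the 10, Mup-ps14 among them, so these had to be lower. Mup-ps13 had 1.01, 1.60, 3.59 and 1.34 CPM in shG0s2, 4.81, 2.98, 6.96 and 5.92 CPM in shRgs16, and 12.2, 13.8, 13.1 and 13.7 CPM in shLacZ. Its knockdown groups overlapped each other and were below shLacZ in every sample. Mup-ps8, another such member in both comparisons, was at 0.0335 to 0.787 CPM in shG0s2, 0.182 to 0.755 CPM in shRgs16 and 2.39 to 3.16 CPM in shLacZ. Pseudogenes also share windows with each other (89.9% of those of Mup-ps8 with Mup-ps6), so the division of reads among them is uncertain.

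Tested directly against shRgs16 in a fit of all 12 samples, shG0s2 had lower levels of most copies. Of 32 members tested, 24 were lower in shG0s2, against 20.5% of 16018 genes, 2 were higher (Mup20 and Mup-ps19), against 21.0%, and 6 passed in neither direction. Of the 32, 24 passed the filter on the shG0s2 samples alone, and 21 of these were lower. The other 8 entered through other samples, and 3 of them (Mup-ps5, Mup-ps12 and Mup-ps14) are among the members called lower. The 6 without a call were Mup5, Mup6, Mup8, Mup-ps7, Mup-ps8 and Mup-ps16. For the central copies, 15 of 16 were lower, with a median log2 difference of -3.09 and a range of -5.21 (Mup15) to -1.49 (Mup8, not past the threshold). The 2 groups overlapped for Mup8, Mup9, Mup14 and Mup17.

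Without shG0s2 replicate 3, 35 members were tested, against 32 with it, and 27 were lower in shG0s2 than in shRgs16. The rise from 24 may thus come in part from members that newly entered. The share of all genes lower in that fit is not given here. The 27 included Mup5 and Mup6, which entered the fit through other samples. Mup5 was then at 0 in every remaining shG0s2 sample, so no fold is given for it. Mup6 was at -1.71 (edgeR adjusted p = 0.00307) without that sample and at -0.73 (adjusted p = 0.2789) with it. Mup10 (-1.63 ± 0.519, adjusted p = 0.0306) lost its call without shG0s2 replicate 2 or 4 or without shRgs16 replicate 1, 3 or 4. Mup14 (-2.48 ± 0.721, adjusted p = 0.0203) lost it without shRgs16 replicate 3 (adjusted p = 0.0501). Mup20 remained 0.93 to 1.10 higher on the log2 scale in shG0s2 whichever sample was left out.

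**Figure D4:**
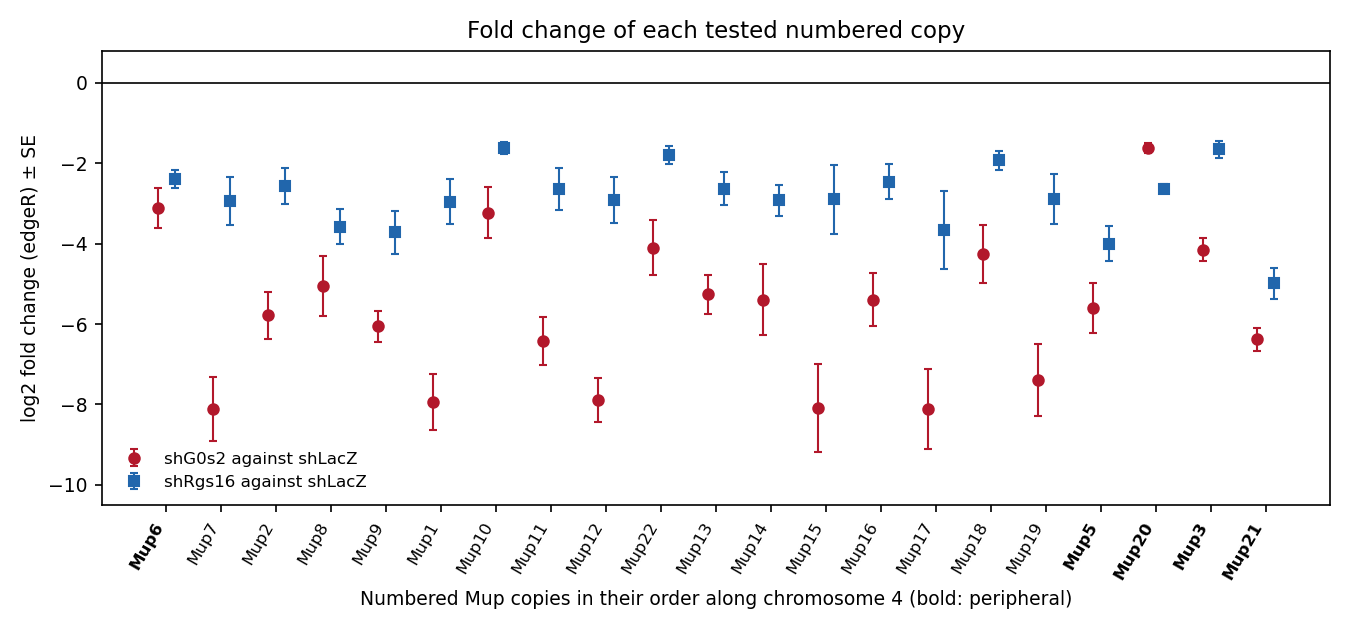
Log2 fold change (y axis, edgeR estimate ± SE) of each tested numbered Mup copy in shG0s2 (circles) and shRgs16 (squares) against shLacZ, ordered along chromosome 4 on the x axis with peripheral copies in bold. All 21 copies lie below 0 in both comparisons. Mup5 in both, and Mup6 in shG0s2, entered only through their shLacZ values and so had to be lower. Mup20 is the copy whose circle is above its square.

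The genes around the cluster were called at rates close to or below those of all genes. Of 29 protein-coding genes that start within 1 Mb of the outermost members, 24 were tested. In shG0s2, 5 were lower and 8 higher with a median log2 fold change of 0.10, where 29.2% of all genes were lower and 31.3% higher. In shRgs16, 6 were lower and 4 higher with a median of 0.02, where 24.5% of all genes were lower and 24.6% higher. With library size alone as the scaling, 0 were lower and 18 higher in shG0s2, and 0 lower and 14 higher in shRgs16. The smallest p in shG0s2 was that of Zfp37, a zinc finger gene, at 7.17, 9.04, 6.13 and 4.70 CPM in shG0s2 and 1.45, 1.65, 2.13 and 1.56 CPM in shLacZ. It was higher by 2.01 ± 0.214 on the log2 scale (edgeR adjusted p = 7.04e-06). Slc31a1, which encodes a copper transporter, had a log2 fold change of -0.56 in shG0s2 and -0.38 in shRgs16 (adjusted p = 8.88e-06 and 0.00035), and by library size alone these were -0.07 and -0.08.

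Male-biased liver genes outside the family were also lower. Of 16 such genes, all 16 were lower in shG0s2 (median log2 fold change -2.79), against 29.2% of all genes, and 13 were lower in shRgs16 (median -1.20), against 24.5%, with 0 higher in either. At least Hsd3b5 and Moxd1 did not pass the filter on the shG0s2 samples alone. They entered that comparison only through their shLacZ values and so had to be lower in shG0s2. They also entered the direct comparison below through other samples. Hsd3b5, a steroid dehydrogenase gene of the male mouse liver, had 0.335, 0.0865, 0.274 and 0.181 CPM in shG0s2, 17.2, 14.5, 52.4 and 15.9 CPM in shRgs16, and 75.2, 105, 109 and 72.1 CPM in shLacZ. Slco1a1, an organic anion transporter gene, had 3.22, 1.77, 8.28 and 3.40 CPM in shG0s2, 138, 80.6, 215 and 133 CPM in shRgs16, and 301, 298, 340 and 318 CPM in shLacZ. For both genes the 3 groups did not overlap and shG0s2 was the lowest. Compared directly, 12 of the 16 were lower in shG0s2 than in shRgs16, against 20.5% of all genes, and 0 were higher. With library size alone these counts were 10 lower and 2 higher. Cyp7b1, an oxysterol hydroxylase gene, was among them at -3.17 ± 0.251 (edgeR adjusted p = 5.25e-06).

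Female-biased liver genes moved the other way. Of 22 listed, 16 were tested against shLacZ, and 12 were higher in shG0s2 (median log2 fold change 2.85), against 31.3% of all genes, and 10 in shRgs16 (median 1.12), against 24.6%, with 0 lower in either. Cyp2b9, a cytochrome P450 gene of the female mouse liver, had 97.9, 121, 87.4 and 94.0 CPM in shG0s2, 2.83, 2.43, 3.44 and 3.58 CPM in shRgs16, and 2.16, 2.69, 4.48 and 1.99 CPM in shLacZ. The shG0s2 samples were far above both other groups, which overlapped each other, and the direct difference of shG0s2 against shRgs16 was 5.04 ± 0.206 (edgeR adjusted p = 1.35e-08). The list was more mixed in that direct comparison. Of 18 tested, 9 were higher in shG0s2, against 21.0% of all genes, and 3 were lower, against 20.5%. The remaining 6 had no call, and the median log2 difference was 0.63.

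Of 20 tested genes of growth hormone signalling and Mup regulation, 9 were lower and 2 higher in shG0s2, and 7 were lower and 1 higher in shRgs16, but with library size alone as the scaling both comparisons gave 4 lower and 5 higher. With TMM, 29.2% of all genes were lower and 31.3% higher in shG0s2, and 24.5% lower and 24.6% higher in shRgs16. Ghr, the growth hormone receptor gene, had 253, 242, 251 and 243 CPM in shG0s2, 277, 228, 304 and 237 CPM in shRgs16, and 517, 520, 494 and 540 CPM in shLacZ. It had a log2 fold change of -1.04 ± 0.061 in shG0s2 (edgeR adjusted p = 7.85e-08) and -0.98 ± 0.088 in shRgs16 (adjusted p = 5.26e-06), with no overlap with shLacZ. The knockdowns overlapped each other for Ghr. Its call held in all 18 alternatives of each comparison, but its size did not. The log2 fold change ranged from -1.06 to -0.50 in shG0s2 and from -1.07 to -0.49 in shRgs16. Igf1, the growth factor gene induced by growth hormone, was at 237 to 296 CPM in shG0s2, 510 to 591 CPM in shRgs16 and 439 to 574 CPM in shLacZ. It was lower in shG0s2 (-0.91 ± 0.101, adjusted p = 9.53e-06) and did not pass in shRgs16 (0.16 ± 0.089, adjusted p = 0.151), and the direct difference was -1.08 ± 0.093 (adjusted p = 4.84e-07). In shRgs16, Igf1 was higher with library size alone (0.47, adjusted p = 0.000197), with limma-trend on TPM (0.35, adjusted p = 0.000547) and without shLacZ replicate 4 (0.24, adjusted p = 0.0276), over a range of 0.10 to 0.47 in 18 alternatives. In shG0s2 the call was lost with limma-trend (-0.18, adjusted p = 0.0834), over a range of -0.98 to -0.18.

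Stat5b, which encodes the main growth hormone-responsive transcription factor of liver, was at -0.32 ± 0.060 in shG0s2 (edgeR adjusted p = 0.000595), a sign that turned to 0.17 with library size alone, and at -0.06 ± 0.059 in shRgs16 (adjusted p = 0.426). In shRgs16 it was higher with library size alone (0.24, adjusted p = 0.00709) and with limma-trend (0.37, adjusted p = 0.0028), so its direction depended on the scaling in both comparisons (adjusted p up to 0.821 in shRgs16 over the alternatives). Zhx2, known in the mouse as a regulator of Mup genes, was at -0.68 ± 0.097 in shRgs16 (adjusted p = 0.00014) and at -0.16 ± 0.111 in shG0s2 (adjusted p = 0.237). By library size alone these were -0.38 (adjusted p = 0.0109) and 0.32 (adjusted p = 0.0263). With limma-trend they were -0.19 (adjusted p = 0.146) and 0.45 (adjusted p = 0.00492), so the shRgs16 call was lost and shG0s2 gained one in the other direction. Over 18 alternatives the values ranged from -0.76 to -0.19 in shRgs16 and from -0.25 to 0.45 in shG0s2. Bcl6, a repressor with male-biased expression in liver, was near the threshold, at -1.01 ± 0.371 in shG0s2 (adjusted p = 0.0507) and -0.89 ± 0.379 in shRgs16 (adjusted p = 0.0948). In shG0s2 it passed in 6 of 18 alternatives (DESeq2, another size factor, the filter of 1 CPM, the replicate block, all 12 samples in 1 fit, and without shLacZ replicate 1), with adjusted p of 0.000407 (the block) to 0.607 over all of them. In shRgs16 it passed in 2 of 18, with the block (adjusted p = 0.0332) and without shLacZ replicate 1 (adjusted p = 0.038), up to 0.22. Its log2 fold change ranged from -1.21 to -0.13 in shG0s2 and from -1.11 to -0.56 in shRgs16. No call was made for Socs2, a feedback inhibitor of growth hormone signalling (adjusted p = 0.261 in shG0s2 and 0.223 in shRgs16), and none in 18 alternatives of each comparison.

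**Figure D5:**
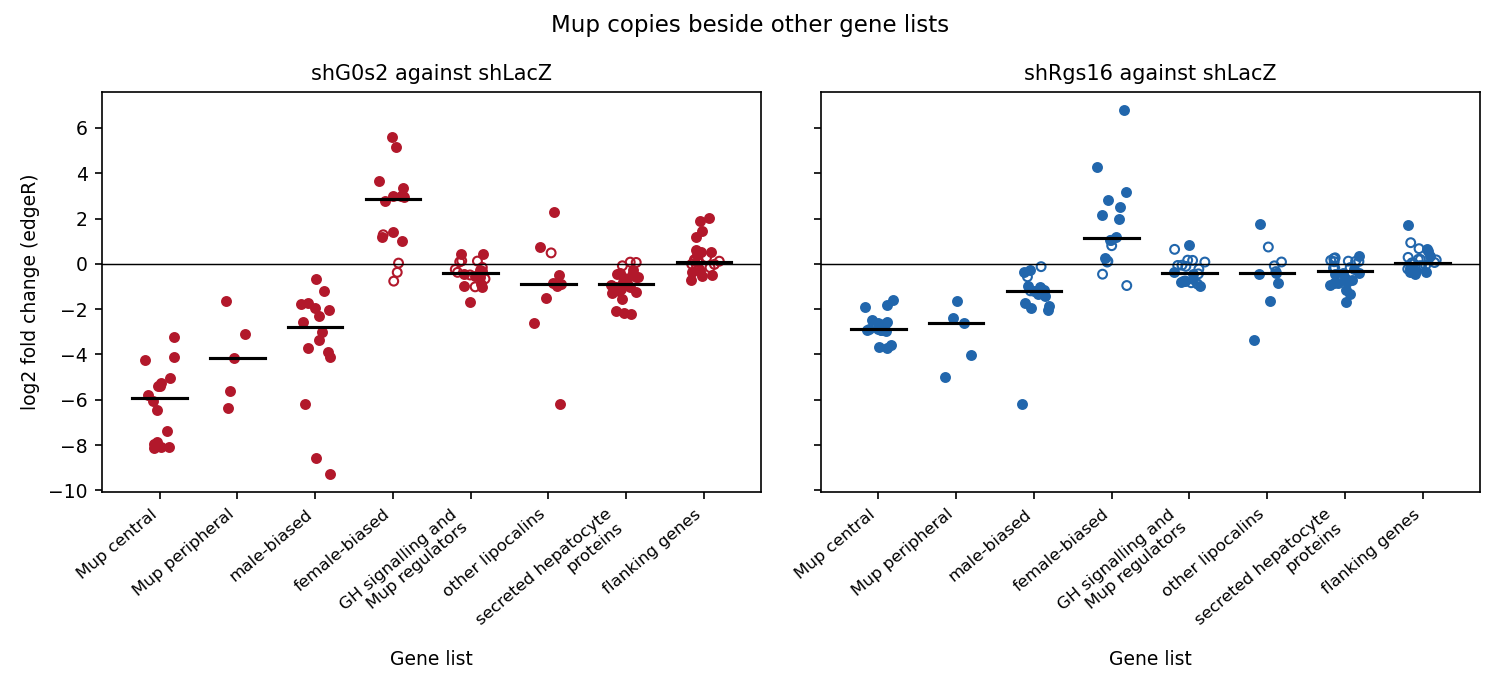
Log2 fold change against shLacZ (y axis, edgeR estimate) of every tested gene in 8 lists, for shG0s2 on the left and shRgs16 on the right. Filled points passed a false discovery rate of 0.05, open points did not, and lines are list medians. The Mup and male-biased lists lie below 0 and the female-biased list has its median above 0 in both panels. Genes that entered only through their shLacZ values, such as Mup5 and Hsd3b5 in shG0s2, had to lie below 0.

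Other lipocalins moved in both directions. Of 10 tested, 7 were lower and 2 higher in shG0s2 and 5 lower and 1 higher in shRgs16, while library size alone gave 5 lower and 3 higher in shG0s2 and 3 lower and 3 higher in shRgs16. With TMM, 29.2% of all genes were lower and 31.3% higher in shG0s2, and 24.5% lower and 24.6% higher in shRgs16. Obp2a, an odorant-binding lipocalin gene, had 4.09, 3.59, 5.24 and 1.59 CPM in shG0s2, 24.1, 16.02, 45.0 and 22.0 CPM in shRgs16, and 233, 322, 265 and 269 CPM in shLacZ. It had a log2 fold change of -6.20 ± 0.315 in shG0s2 (edgeR adjusted p = 2.15e-06) and -3.35 ± 0.333 in shRgs16 (adjusted p = 0.000222), with no overlap between groups. Ptgds, a prostaglandin D synthase gene, was also lower, at -2.61 ± 0.188 in shG0s2 (adjusted p = 3.52e-07) and -1.66 ± 0.256 in shRgs16 (adjusted p = 0.00042).

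Abundant secreted proteins of hepatocytes changed less. Of 24 tested, 21 were lower in shG0s2 with a median log2 fold change of -0.89, and 13 were lower and 1 higher in shRgs16 with a median of -0.31, where 29.2% of all genes were lower in shG0s2 and 24.5% in shRgs16. With library size alone the counts were 13 lower and 4 higher in shG0s2 and 10 lower and 7 higher in shRgs16. Serpina1c, a serine protease inhibitor gene, had a log2 fold change of -2.19 in shG0s2 and -1.16 in shRgs16. Alb, the albumin gene, took 4.54, 2.97, 4.59 and 4.42% of counts in shG0s2, 4.10, 4.71, 4.41 and 4.16% in shRgs16, and 2.88, 3.05, 2.48 and 2.80% in shLacZ. On the TMM scale Alb averaged 104% of its shLacZ mean in shG0s2 and 125% in shRgs16, against 147% and 155% as a share of counts.

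Markers of some other liver cells moved with the groups. The 10 macrophage markers summed to 1162 to 1380 CPM in shG0s2, 1097 to 1272 CPM in shRgs16 and 809 to 900.3 CPM in shLacZ, with 9 of 10 higher in shG0s2 and 8 of 9 tested higher in shRgs16. The 8 stellate cell and fibroblast markers summed to 973 to 1237 CPM in shG0s2, 403 to 720.4 CPM in shRgs16 and 231 to 323 CPM in shLacZ, with 8 of 8 and 5 of 8 higher. The 13 hepatocyte markers summed to 33244 to 54022 CPM in shG0s2, 60144 to 65573 CPM in shRgs16 and 53697 to 64613 CPM in shLacZ, with 12 of 13 lower in shG0s2 and 8 lower and 2 higher in shRgs16. With library size alone these were 10 lower and 1 higher in shG0s2 and 3 lower and 3 higher in shRgs16. Of 7 endothelial markers, 2 were lower and 1 higher in shG0s2 and 2 higher in shRgs16, and of 4 B cell markers 0 were called in shG0s2 and 1 was higher in shRgs16. Of 7 T and NK cell markers, 4 were higher and 1 lower in each knockdown, and of 5 cholangiocyte markers 2 were higher in each. With TMM, 29.2% of all genes were lower and 31.3% higher in shG0s2, and 24.5% lower and 24.6% higher in shRgs16. The endothelial, B cell and cholangiocyte counts are over few markers and are not read as a change. No marker of these 7 lists was at 0 in any group. Their part in the Mup result was not tested. Of 5 markers of salivary and lacrimal glands, where Mup4 and Mup5 are also made, 4 (Bpifa2, Scgb2b27, Smr2 and Smr3a) were at 0 in all 12 samples. The fifth, Amy1, an amylase gene, had 121, 97.7, 120.1 and 117 CPM in shG0s2, 166, 156, 191 and 173 CPM in shRgs16, and 320, 326, 261 and 347 CPM in shLacZ. It was lower in both knockdowns, with log2 fold changes of -1.44 ± 0.098 in shG0s2 (edgeR adjusted p = 2.56e-07) and -0.87 ± 0.091 in shRgs16 (adjusted p = 1.61e-05), and the 3 groups did not overlap.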

How the data were processed

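Bulk liver RNA of 12 samples was analysed, in groups taken from the sample titles. Per the file headers, the 2 deposited tables, 1 for each knockdown, give estimated counts for every gene, of which 5789 to 6625 per sample were not whole. The deposited TPM columns sum to 992336 to 996333. Fold changes computed by the authors stand beside them, as a ratio and on a log2 scale, with a p-value. Per the submitters' processing notes, tools included SAMtools 1.9, Bowtie2 2.2.9, fastp 0.19.5, DESeq2 and GATK 3.8. Not given in the sources used here are the build, the annotation, the counting program and its strand setting, so antisense or overlapping genes may share reads. The 8 shLacZ columns compared between tables differed in 0 cases, so the tables were joined. All 55536 gene identifiers matched the GENCODE annotation of GRCm38, which supplied coordinates and transcripts.

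Estimated counts were rounded to whole numbers, filtered with filterByExpr, scaled by TMM and fitted with edgeR 4.0.16 in R 4.3.3 (robust quasi-likelihood, two-sided F test, Benjamini-Hochberg adjustment over all genes, threshold 0.05). Each knockdown was fitted with shLacZ (8 samples), and shG0s2 against shRgs16 in all 12. The procedure was tested on simulated data. Alternatives were DESeq2 1.42.0, limma 3.58.1 (voom, and trend on log2(TPM + 1)), other scalings and filters, a replicate block and each sample left out. No 2 replicates agreed within counting noise (chi-square over degrees of freedom 12.12 to 47.26), so none was treated as a repeat of another. Windows of 50 bases were compared over all annotated transcripts. Family sums and shares are descriptions with no test.

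Values are given per sample for the 6 members with the highest mean TPM, the tested peripheral members, and the members with the largest and smallest fold change per comparison among those of at least 1 CPM. From the other lists, the genes with the smallest p and a few regulators are named, and Mup17, Mup10, Hsd3b5, Slco1a1, Obp2a and Alb are also given where a result turns on them. The members and lists were chosen with earlier results of these data known.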

Additional observations from a re-analysis of the deposited data

Results flagged for a closer look

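Within each group of 4 samples, the highest and the lowest value were compared with their fellows for the family sums and the members given per sample, and 9 of 57 such groups had 1 sample far from the other 3. Chance alone gives about 1 in 20, and sums and copies that share reads are not independent. In 8 of the 9 it was shG0s2 replicate 3, which was high. There the central copies took 0.600% of counts, the pseudogenes 0.00345% and all members but Mup20 0.674%, whereas Mup20 itself was not far from its fellows. In the same sample Mup5 was at 0.0684 CPM, Mup11 at 265 CPM, Mup14 at 825 CPM, Mup21 at 5.92 CPM and Mup22 at 2240 CPM. The Mup5 flag rests on 1.98 estimated counts where the rest of the group had 0, so it carries no weight. The remaining one was Mup14 in shLacZ replicate 3, which was low at 10449 CPM. The cause was not tested.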

How the results depend on the processing

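No Mup member changed direction under any alternative run, and no member lost its call in shG0s2 against shLacZ. In shRgs16 against shLacZ, 29 members were lower with a replicate block, which lost Mup15 and Mup17, and without a filter Mup15 was lost. In shG0s2 against shRgs16, 21 were lower with the 8 samples of those groups, which lost Mup10, Mup14 and Mup-ps1, and 22 with limma-voom, which lost Mup-ps10 and Mup-ps12. Same-numbered samples correlated at -0.114 to 0.219. Replicates 1 and 4 of each knockdown correlated best with the shLacZ sample of the same number, and replicates 2 and 3 with another. Whether replicate numbers mark a pair or batch was not tested. With the block, 9299, 7104 and 6534 genes were called and 32, 29 and 24 members were lower in the comparisons in the order above, with 2 higher in the last. Leaving out each sample in turn gave 8758 to 9301, 6487 to 7397 and 5779 to 6869 genes called, with 32 to 35, 31 to 35 and 22 to 27 members lower and 2 to 2 higher in the last. These fits tested 32 to 35 members in each comparison, so the counts move in part with the number tested. The family's share of counts then ranged over 1.014 to 1.26% in shG0s2, 1.93 to 2.65% in shRgs16 and 10.4 to 10.9% in shLacZ, and its share of TPM over 2.08 to 2.61%, 3.96 to 5.40% and 19.3 to 20.2%. Without mitochondrially encoded genes in the total, the shLacZ share of counts was 11.2%. Stat5b reversed to 0.17 with library size alone and to 0.40 with limma-trend on TPM in shG0s2 against shLacZ, and to 0.03 with limma-trend in shG0s2 against shRgs16; the cause was not tested. Intervals from estimated counts of near-identical copies were not given, because depth per copy depends on how reads were divided.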

Other observations

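Several members outside the named copies had counts too low to test. Mup4 summed to 51.1 estimated counts over the shLacZ samples, Mup-ps4 to 44.3 and Mup-ps15 to 54.5, and each was lower in sum in both knockdowns. Mup-ps22, the member on chromosome 11, had 2 estimated counts over the shG0s2 samples and 0 in both other groups.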
